A study of Mus musculus with 24 samples.

Results

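NRF2, the transcription factor encoded by Nfe2l2, its inhibitor KEAP1 and 8 of the genes that NRF2 is known to control were examined in the liver. The 10 genes were chosen by name, as the regulator pair Nfe2l2 and Keap1 and the target genes Gclc, Gclm, Gsr, Txn1, Txnrd1, Srxn1, Nqo1 and Hmox1. All 10 were found among the 25746 genes listed and all 10 were among the 12330 genes that passed the expression filter (0.66 CPM or more in 6 or more libraries, where CPM are counts scaled to the same library size). RNAseq libraries had been made from the livers of 24 mice on a C57/BL6N background, 6 each of male wildtype (mWT), male knockout (mKO), female wildtype (fWT) and female knockout (fKO), all 12 weeks of age. The KO mice carried a homozygous CRISPR/Cas9 deletion of the whole cluster of major urinary protein (Mup) genes, which encode small carrier proteins that the liver secretes. The KO line descended from a single male founder, and KO and WT mice came from a heterozygous intercross. Mice of all 4 groups were fasted for some hours, anaesthetized with isoflurane and scanned by microCT before the organs were taken, per the study's methods, and no drug or diet was compared. The comparisons ask how the loss of the Mup genes relates to the expression of the antioxidant genes in each sex.

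NRF2 is held in the cytosol by KEAP1 and marked there for degradation. When electrophiles or oxidants modify KEAP1, NRF2 accumulates, enters the nucleus and binds, together with a small MAF protein, to antioxidant response elements in its target genes. NRF2 is thus controlled mainly at the level of the protein, which RNAseq does not measure. The targets examined here make and recycle glutathione, keep thioredoxin reduced, repair peroxiredoxins, reduce quinones and break down heme, and the liver is a major site of all of these reactions.

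The total count per mouse lay between 15361901 and 26261394, so that 3 counts, taken as the smallest detectable amount, corresponded to at most 0.195 CPM (counting error only, as the reads carry no molecular identifiers). The 22 Mup genes together had at most 11 counts in any KO library and at least 70768 in every WT library. The 6 hepatocyte markers summed to between 99720 and 160979 CPM over all mice, whereas the 4 adipocyte markers reached at most 0.157 CPM. No library stood apart in these checks.

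The DNA before the start of 3 of the genes is shown as context for the values described further on. Srxn1 and Txn1 had unadjusted p-values under 0.01 in males and Gclm did not, and the responses of the 3 genes were not tested against each other. Sequences are from RefSeq, build GRCm38.p6, and hold the 250 bases before the start site in the direction of the gene. Capitals mark the core of the antioxidant response element, searched on both strands as TGACNNNGC and as its variant TGAGNNNGC.
Srxn1 (chr2:152105274-152105523, plus strand): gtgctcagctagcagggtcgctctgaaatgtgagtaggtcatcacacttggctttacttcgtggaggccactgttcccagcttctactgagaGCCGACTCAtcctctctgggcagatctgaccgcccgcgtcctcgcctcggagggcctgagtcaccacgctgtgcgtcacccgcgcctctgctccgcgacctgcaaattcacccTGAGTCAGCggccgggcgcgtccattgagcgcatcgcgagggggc
Txn1 (chr4:57956412-57956661, minus strand): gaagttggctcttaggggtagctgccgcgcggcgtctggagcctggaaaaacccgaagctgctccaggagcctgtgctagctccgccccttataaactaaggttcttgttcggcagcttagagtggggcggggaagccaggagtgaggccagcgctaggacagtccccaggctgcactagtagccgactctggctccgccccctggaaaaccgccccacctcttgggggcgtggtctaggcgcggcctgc
Gclm (chr3:122245307-122245556, plus strand): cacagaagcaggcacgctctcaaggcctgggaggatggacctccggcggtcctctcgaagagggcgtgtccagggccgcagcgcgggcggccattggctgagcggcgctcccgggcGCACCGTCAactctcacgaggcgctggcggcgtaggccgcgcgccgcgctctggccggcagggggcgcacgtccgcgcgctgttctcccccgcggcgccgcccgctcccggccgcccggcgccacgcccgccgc

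The Srxn1 sequence held the variant core 2 times, on the minus strand beginning 158 bases and on the plus strand beginning 45 bases before the start. A further TGACNNNGC lay 28 bases after the start. The Gclm sequence held TGACNNNGC on the minus strand beginning 134 bases before the start, and neither core was found in the Txn1 window. Of 7 members with a RefSeq window of 300 bases (250 before and 50 after the start), 4 held TGACNNNGC (Nfe2l2, Srxn1, Gclm and 1 of the 3 windows of Txnrd1) and 1 held TGAGNNNGC. Counted by window, 4 of the 9 windows of these members held TGACNNNGC and 1 held TGAGNNNGC. Of all 32851 windows of this length, 12.4% held TGACNNNGC, 17.6% held TGAGNNNGC and 27.8% held either core. The windows of Keap1 and Nqo1 held neither core, and Gclc, Gsr and Hmox1 were not analysed here. A match of these letters is a description of the sequence and was not measured as a binding site.

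The members differed widely in their level. Per length of transcript, on the RPKM scale (CPM per kilobase of exon, mean ± SD over 24 mice), Txn1, the small protein that passes electrons to oxidized proteins, was highest at 159 ± 17.7. It was followed by Gclc (63.1 ± 18.5) and Gclm (33.4 ± 3.13), which encode the catalytic and the modifier subunit of glutamate-cysteine ligase, the first enzyme of glutathione synthesis. Gsr (19.6 ± 3.44), Nfe2l2 (18.6 ± 2.89) and Txnrd1 (17.0 ± 1.04) lay close together. Srxn1 (13.6 ± 2.09), Nqo1 (7.83 ± 2.83), Keap1 (6.72 ± 0.569) and Hmox1 (5.46 ± 1.18) were lower. In Nqo1 this mean pools sexes that differed, as its group means were 4.85 in mWT, 6.09 in mKO, 9.88 in fWT and 10.5 in fKO mice, so that it lay above the means of Keap1 (6.55 to 7.11) and Hmox1 (4.78 to 6.34) of the same group in females, between them in mKO and below both in mWT mice. The order of the first 3 held in each of the 24 mice, as did that of Srxn1 above Nqo1. Gsr lay above Nfe2l2 in 12 of the 24 mice, Nfe2l2 above Txnrd1 in 17, Txnrd1 above Srxn1 in 21, Nqo1 above Keap1 in 14 and Keap1 above Hmox1 in 20, so that these neighbours overlapped in their ranges. Within groups, the SD of the log2 CPM was smallest for Txnrd1 (0.084, and 1.65% of all tested genes had a smaller SD) and largest for Gclc (0.301).

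**Figure D1:**
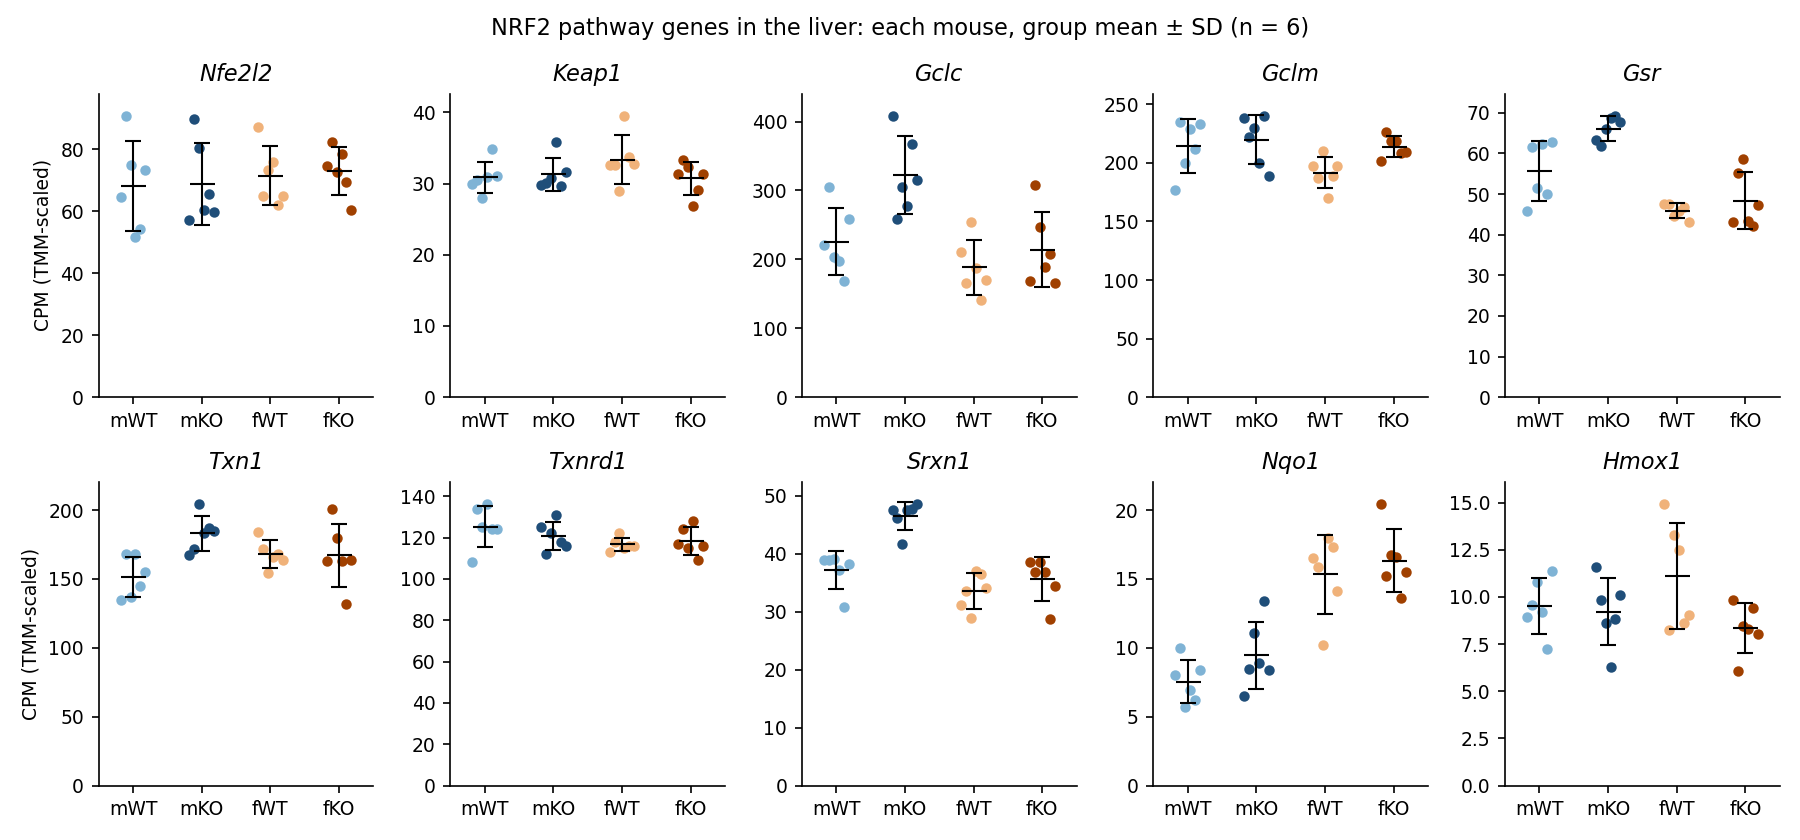
Expression of the 10 genes in CPM (y axes, from 0) in the 6 mice of each group (x axes: mWT, mKO, fWT, fKO), with 1 point per mouse and the group mean ± SD in black. All 6 mKO mice lie above all mWT mice for Srxn1 (lowest mKO 41.7, highest mWT 39.1 CPM), and all 6 males of each genotype lie below all females of that genotype for Nqo1.

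In males, 4 of the 10 genes were higher in mKO than in mWT mice at the unadjusted p-value under 0.01 that the study used as its cut-off, and 0 were lower. These were Srxn1, Txn1, Gsr and Gclc, with fold changes between 1.19 and 1.43. The count was 2 without mWT mouse 3, mWT mouse 5 or mKO mouse 5. Of all genes tested, 3.52% passed this cut-off in males. The median log2 fold change of the 10 genes was 0.14, against 0.00 for all genes tested. As the study itself looked at NRF2-linked genes in these same mice, the list is no independent evidence of a direction. In edgeR, 4 members and 1305 of the 12330 genes tested had an unadjusted p under 0.05. After Benjamini-Hochberg adjustment of the p-values of edgeR's quasi-likelihood test, 0.211% of all genes and 0 of the 10 members had an adjusted p under 0.05. With DESeq2, which called 1.15% of all genes in this way, Srxn1 and Txn1 passed.

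Srxn1 encodes sulfiredoxin, which returns overoxidized peroxiredoxins to their active form, and lies on chromosome 2 (ENSMUSG00000032802, 152105516 to 152111376, GRCm38, GENCODE M21). Its expression ranged from 41.7 to 48.5 CPM in mKO mice (median 47.6) and from 30.8 to 39.1 CPM in mWT mice (median 38.6). The groups did not overlap, as was the case for 1.09% of all genes tested and for no other member in this comparison. The group means were 46.6 ± 2.49 in mKO and 37.2 ± 3.23 CPM in mWT mice (SD, n = 6 each). Srxn1 was thus 1.25-fold higher in mKO mice (log2 fold change 0.32, standard error 0.0766, adjusted p = 0.0936 from edgeR, with a range of 0.0122 to 0.277 over the alternatives). The two-sided exact permutation test gave p = 0.00216, the smallest that 6 against 6 mice allow.

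Txn1 (chromosome 4, 57943373 to 57956411), the cytosolic thioredoxin, lies 2000393 bp from the Mup cluster on the same chromosome. It ranged from 167 to 204 CPM in mKO mice (median 184) and from 135 to 168 CPM in mWT mice (median 150), and 5 of the 6 mKO values were above the highest mWT value. Txn1 was 1.21-fold higher in mKO mice (log2 fold change 0.27, standard error 0.0807, adjusted p = 0.173 from edgeR, with a range of 0.0475 to 0.367 over the alternatives), and the two-sided exact permutation test gave p = 0.00649. The enzyme that reduces thioredoxin, Txnrd1 (chromosome 10, 82833951 to 82897712), ranged from 112 to 131 CPM in mKO and from 108 to 136 CPM in mWT mice. The mKO values lay within the range of the mWT mice, with a log2 fold change of −0.05 (95% confidence interval −0.17 to 0.06, adjusted p = 0.820 from edgeR).

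Among the glutathione genes, Gsr (chromosome 8, 33652523 to 33698163) encodes glutathione reductase, which regenerates glutathione from its oxidized form with NADPH. Gsr ranged from 61.7 to 69.2 CPM in mKO mice (median 66.9) and from 45.8 to 62.8 CPM in mWT mice (median 56.5). In 5 of the 6 mKO mice Gsr was above the highest mWT value, and the mWT mice varied more widely (SD 7.39 against 3.06 CPM). Gsr was 1.19-fold higher in mKO mice (log2 fold change 0.25, standard error 0.0845, adjusted p = 0.247 from edgeR), and the two-sided exact permutation test gave p = 0.00866. Gclc, the catalytic subunit gene (ENSMUSG00000032350), ranged from 258 to 408 CPM in mKO mice (median 310) and from 169 to 305 CPM in mWT mice (median 212), and 3 of the 6 mKO values were above the highest mWT value. Gclc was below the cut-off of 0.01 in edgeR, whereas the two-sided exact permutation test gave p = 0.0152 for the same mice. Gsr missed the cut-off in edgeR without mWT mouse 1, 3 or 5 or mKO mouse 3, 4, 5 or 6, and Gclc without mWT mouse 3, 4 or 5 or mKO mouse 1 or 5. The modifier subunit gene Gclm (chromosome 3, 122245557 to 122270732) ranged from 189 to 240 CPM in mKO and from 177 to 235 CPM in mWT mice. The log2 fold change of Gclm was 0.04 (95% confidence interval −0.12 to 0.19), and the groups overlapped almost entirely. Transcripts of Gclm share stretches of up to 297 bases of at least 90% identity with 247 other genes, 177 of them counted here, so that part of its count is uncertain.

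Nqo1 (chromosome 8, 107388225 to 107403206), a quinone reductase and a classical NRF2 target, had 6.53 to 13.4 CPM in mKO and 5.69 to 9.96 CPM in mWT mice. In 2 of the 6 mKO mice Nqo1 was above the highest mWT value. The interval of its log2 fold change of 0.32 included 0 (95% confidence interval −0.01 to 0.66, adjusted p = 0.486 from edgeR). Hmox1 (chromosome 8, 75093621 to 75100589), the inducible heme oxygenase, had 6.30 to 11.6 CPM in mKO and 7.26 to 11.4 CPM in mWT mice, and the log2 fold change was −0.04 (95% confidence interval −0.36 to 0.28).

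The mRNA of the regulators showed no difference beyond the spread between mice. Nfe2l2 had a median of 63.0 CPM in mKO (57.1 to 89.7) and of 68.9 CPM in mWT mice (51.6 to 90.8), so that the interval of its log2 fold change in males spanned −0.25 to 0.28. For Keap1 (chromosome 9, 21229730 to 21239361) the medians were 30.5 CPM in mKO (29.6 to 35.8) and 30.7 CPM in mWT mice (28.0 to 34.8), with a log2 fold change of 0.02 (95% confidence interval −0.13 to 0.17). Antisense genes overlap Keap1 and Gclm, and the strand setting of the counting is not given in the sources used here, so that reads of these pairs cannot be told apart.

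In females, 0 of the 10 genes had an unadjusted p under 0.01 with edgeR or with DESeq2. With edgeR, 2 had a p under 0.05, as had 601 of the 12330 genes tested. Of all genes, 0.876% passed the cut-off of 0.01 and 0.0892% the adjusted p under 0.05 (0 of the 10 genes with either tool). The median log2 fold change of the 10 genes was 0.05, against 0.00 for all genes. Srxn1 ranged from 28.7 to 38.5 CPM in fKO mice (median 36.9) and from 28.9 to 37.1 CPM in fWT mice (median 33.8). These ranges nearly coincided, with a log2 fold change of 0.09 (95% confidence interval −0.07 to 0.25). Txn1 ranged from 132 to 201 CPM in fKO and from 154 to 184 CPM in fWT mice, with a log2 fold change of −0.01 (95% confidence interval −0.17 to 0.16). For Gsr the log2 fold change in females was 0.07 (95% confidence interval −0.10 to 0.25) and for Gclc 0.19 (95% confidence interval −0.15 to 0.53).

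The unadjusted p-values under 0.05 in females were those of Hmox1 and Gclm. Gclm had 202 to 226 CPM in fKO (median 214) and 170 to 210 CPM in fWT mice (median 193), and 3 of the 6 fKO values were above the highest fWT value. Gclm was 1.12-fold higher in fKO mice (log2 fold change 0.16, standard error 0.0739, adjusted p = 0.929 from edgeR), and the two-sided exact permutation test gave p = 0.00866. Nqo1 in females had 13.6 to 20.4 CPM in fKO and 10.2 to 18 CPM in fWT mice, and the log2 fold change was 0.09 (95% confidence interval −0.22 to 0.40). For Txnrd1, Nfe2l2 and Keap1, the log2 fold changes in females were 0.02, 0.03 and −0.12, and their 95% confidence intervals included 0.

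**Figure D2:**
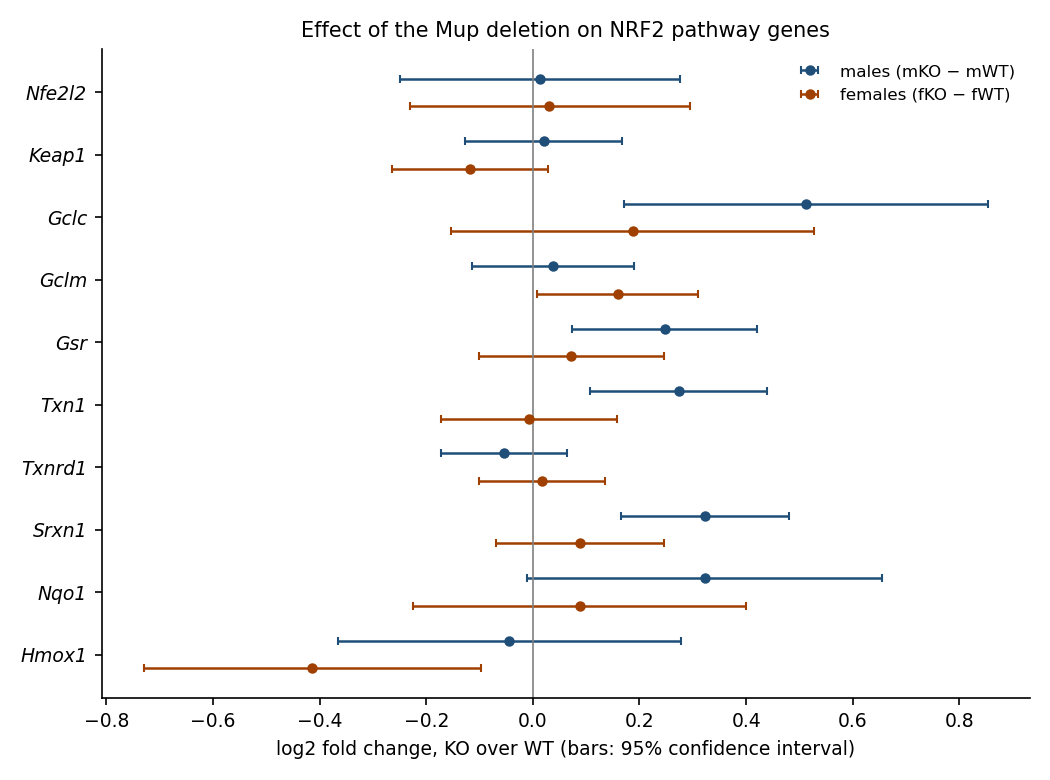
Log2 fold change of KO over WT (x axis) for each of the 10 genes (y axis) in males (blue, mKO against mWT) and females (orange, fKO against fWT), with bars for the 95% confidence interval from edgeR. The male intervals of Gclc, Gsr, Txn1 and Srxn1 lie above 0, and each overlaps the female interval of the same gene.

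Hmox1 was numerically lower in fKO mice, at 6.07 to 9.84 CPM (median 8.38) against 8.27 to 14.9 CPM in fWT mice (median 10.8). The fWT mice fell apart into 3 with 12.5 to 14.9 CPM and 3 with 8.27 to 9.07 CPM. In edgeR, fKO mice had a log2 fold change of −0.41 over fWT mice (standard error 0.154, adjusted p = 0.929), and the exact permutation test gave p = 0.0779. Hmox1 passed the unadjusted cut-off of 0.01 without mKO mouse 4, fWT mouse 2, 5 or 6, or fKO mouse 1. Beside this, all 12 Kupffer cell and macrophage markers had a negative log2 fold change in females (median −0.30, 0 with an unadjusted p under 0.05 in edgeR and 0 under 0.01 in DESeq2). Their summed level was 185 to 345 CPM in fKO and 223 to 395 CPM in fWT mice, and no marker of the list was at 0. The 3 fWT mice with the most Hmox1 had 314, 384 and 395 CPM of the summed markers, and the other 3 had between 223 and 248 CPM. The mWT mice did not show this order. Their highest Hmox1 (11.4 CPM) was in the mouse with the lowest summed markers (116 CPM). The mWT mouse with the highest summed markers (244 CPM) had 9.18 CPM of Hmox1. Over the 24 mice with group means subtracted, Pearson's r between the log2 levels of Hmox1 and of the summed markers was 0.54 (permutation p = 0.0143), and Spearman's rho was 0.51 (permutation p = 0.0213). Without the 2 mice farthest from the median of Hmox1, r was 0.42. This relation was computed once, after the values had been seen, and its part in the lower Hmox1 of fKO mice was not tested. In whole liver, fewer cells of a type and less RNA per cell cannot be told apart.

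**Figure D3:**
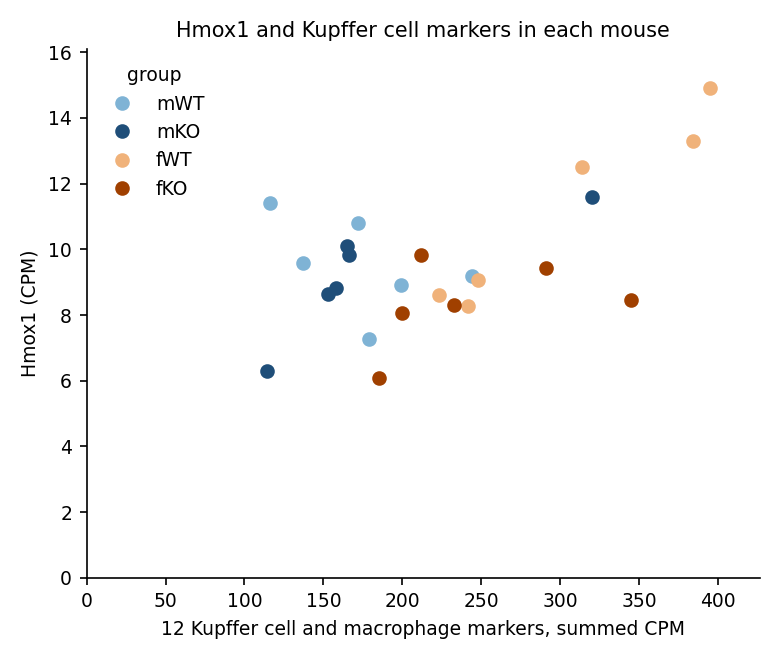
Hmox1 in CPM (y axis) against the summed CPM of 12 Kupffer cell and macrophage markers (x axis), with 1 point per mouse coloured by group. The 3 fWT mice with 314 CPM or more of the markers have the highest Hmox1 values of all 24 mice, 12.5 to 14.9 CPM, whereas an fKO mouse with 345 CPM of the markers has 8.46 CPM and an mKO mouse with 320 CPM has 11.6 CPM of Hmox1.

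Whether the deletion acted differently in the sexes was tested directly, as the KO effect in males minus that in females. No member reached an unadjusted p under 0.01 for this difference with edgeR or DESeq2, a cut-off that 1.16% of all genes passed in edgeR. An adjusted p under 0.05 was reached by 0.00811% of all genes in edgeR and by 0 members with either tool. An unadjusted p under 0.05 in edgeR was found for 2 members and for 735 of the 12330 genes tested. The members with an unadjusted p under 0.05 were Txn1 and Srxn1. For Txn1 the difference was 0.28 on the log2 scale (95% confidence interval 0.05 to 0.52, adjusted p = 0.823 from edgeR) and for Srxn1 it was 0.23 (95% confidence interval 0.01 to 0.46, adjusted p = 0.829 from edgeR). For Gclc and Gsr the differences of 0.32 and 0.18 had intervals that included 0 (−0.16 to 0.81 and −0.07 to 0.42). The changes in males were therefore not shown to differ from those in females after adjustment.

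Averaged over both sexes, Gclc and Srxn1 had an unadjusted p under 0.01, which 2.83% of all genes reached. The averaged log2 fold change was 0.21 for Srxn1 (standard error 0.0541, adjusted p = 0.197 from edgeR, over the alternatives 0.0362 to 0.380) and 0.35 for Gclc (standard error 0.117, adjusted p = 0.302, over the alternatives 0.115 to 0.540). Gclc missed the unadjusted cut-off when any of 10 mice was left out. In edgeR, 5 members and 1180 of the 12330 genes tested had an unadjusted p under 0.05. An adjusted p under 0.05 was reached by 0.170% of all genes and by 0 members with edgeR. With DESeq2, where 0.389% of all genes were called, it was reached by 1 member, Srxn1. These averages share all mice with the comparisons within each sex.

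The sexes differed most in Nqo1. In WT mice, Nqo1 ranged from 5.69 to 9.96 CPM in males (mean 7.54 ± 1.57, SD, n = 6) and from 10.2 to 18 CPM in females (mean 15.3 ± 2.86, SD, n = 6). The groups did not overlap, which held for 7.70% of all genes and for no other member. The log2 fold change of mWT over fWT was −1.03 (standard error 0.159, adjusted p = 3.90e-05 from edgeR), so that males had 0.491 times the female level. In KO mice the sexes did not overlap either, with 6.53 to 13.4 CPM in mKO and 13.6 to 20.4 CPM in fKO mice (log2 fold change −0.79, standard error 0.156, adjusted p = 0.000727 from edgeR). The sex difference in Nqo1 changed by 0.23 on the log2 scale between the genotypes (95% confidence interval −0.22 to 0.69, adjusted p = 0.923 from edgeR).

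Gsr was higher in males of both genotypes. In WT mice it ranged from 45.8 to 62.8 CPM in males and from 43.2 to 47.6 CPM in females, and in 5 of the 6 males it was above the highest female value (log2 fold change 0.28, standard error 0.0847, adjusted p = 0.0238 from edgeR, over the alternatives 0.00703 to 0.0678, above 0.05 without mWT mouse 2, 4 or 6 and with upper-quartile scaling). The two-sided exact permutation test gave p = 0.0108 for Gsr in WT mice, above the cut-off of 0.01 used for that test. In KO mice all 6 males lay above all females, whose values ranged from 42.2 to 58.7 CPM (log2 fold change 0.45, standard error 0.0845, adjusted p = 0.000401 from edgeR). In WT mice, 2 of the 10 members (Nqo1 and Gsr) had an adjusted p under 0.05 for the sex difference, against 17.3% of all genes.

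In KO mice, 4 of the 10 members (Nqo1, Gsr, Srxn1 and Gclc) had an adjusted p under 0.05 for the sex difference, against 14.4% of all genes. Srxn1 was higher in each of the 6 mKO mice than in any fKO mouse (41.7 to 48.5 against 28.7 to 38.5 CPM, log2 fold change 0.39, standard error 0.0764, adjusted p = 0.000779 from edgeR). Including Nqo1 and Gsr, 3 members did not overlap between the sexes in KO mice, as did 7.26% of all genes. Gclc was at 258 to 408 CPM in mKO and at 165 to 308 CPM in fKO mice, and 3 of the 6 mKO values were above the highest fKO value (log2 fold change 0.59, standard error 0.165, adjusted p = 0.0176 from edgeR). In WT mice, the sex differences of Srxn1 (log2 fold change 0.15, adjusted p = 0.184) and Gclc (0.26, adjusted p = 0.298) did not pass the threshold of edgeR's test. These comparisons share the mKO mice with the KO effect in males, and the change of the sex difference with genotype is the same quantity as the difference between the KO effects of the sexes.

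The other members had an adjusted p above 0.05 for the sex difference in both genotypes. Gclm was 0.16 higher on the log2 scale in mWT than in fWT mice (95% confidence interval 0.01 to 0.31, adjusted p = 0.138 from edgeR) and Txnrd1 0.10 higher (95% confidence interval −0.01 to 0.22). Txn1 was numerically lower in mWT than in fWT mice (log2 fold change −0.15, 95% confidence interval −0.32 to 0.02) and numerically higher in mKO than in fKO mice (0.13, 95% confidence interval −0.03 to 0.30). For Nfe2l2, Keap1 and Hmox1 in WT mice, the log2 fold changes of males over females were −0.07, −0.11 and −0.22. Beside these differences, 9 of the 12 Kupffer cell and macrophage markers were lower in mWT than in fWT mice (adjusted p under 0.05). The same threshold was passed by 17.3% of all genes, in either direction. The median log2 fold change of the 12 markers was −0.76, with a summed level of 116 to 244 CPM in mWT and 223 to 395 CPM in fWT mice. The part of these cells in the sex differences of the members was not tested.

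**Figure D4:**
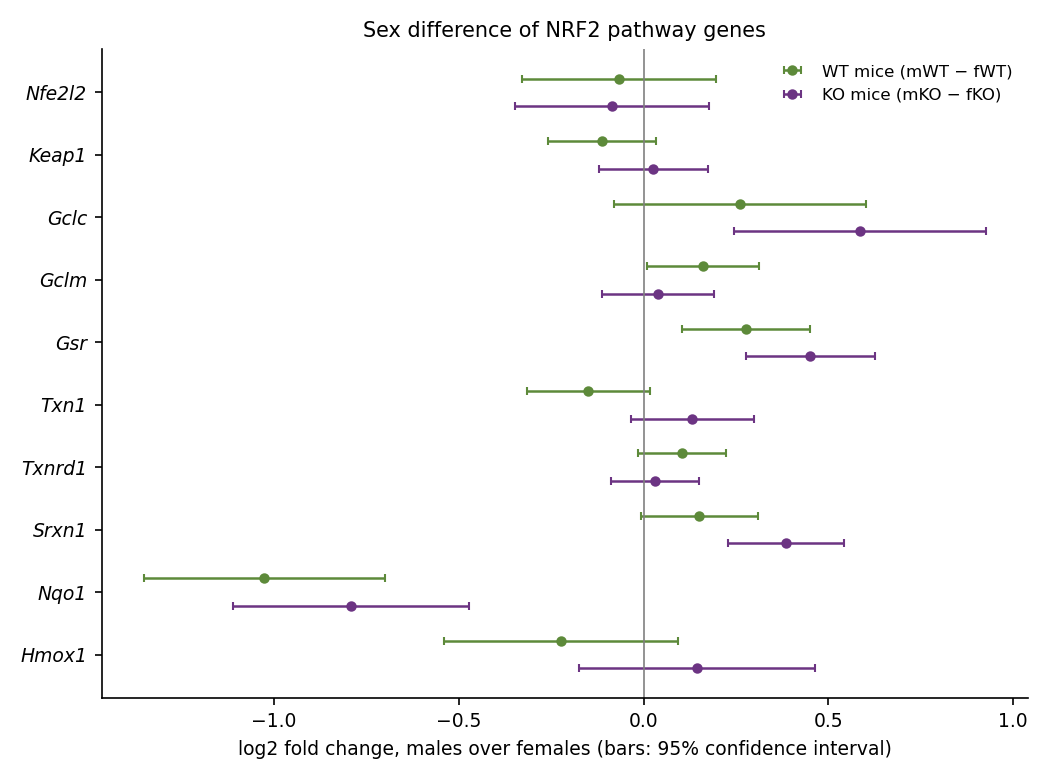
Log2 fold change of males over females (x axis) for each of the 10 genes (y axis) in WT mice (green) and KO mice (purple), with bars for the 95% confidence interval from edgeR. Both intervals of Nqo1 lie below 0, both intervals of Gsr lie above 0, and for Srxn1 and Gclc the interval lies above 0 in KO mice and includes 0 in WT mice.

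The members were next compared with each other across mice after the mean of each group had been subtracted. Of the 45 pairs, 32 had a positive and 13 a negative Pearson's r, with a median of 0.21. Only the pair Gsr and Txn1 passed the adjustment over the 45 pairs, with r = 0.78 (permutation p = 0.000130, adjusted p = 0.00585) and Spearman's rho of 0.86 (permutation p = 4.00e-05, adjusted p = 0.00180). Within the groups, r of this pair lay between 0.60 and 0.91 and was positive in all 4, and r was 0.78 without the 2 mice farthest from the median of Gsr. The next pairs were Gclm with Txnrd1 (r = 0.49), Txn1 with Txnrd1 (r = 0.48), Gclc with Gclm (r = 0.47) and Txn1 with Nqo1 (r = 0.47), each with an adjusted permutation p of 0.269. The subunit genes Gclc and Gclm had a positive r in all 4 groups (0.39 to 0.81), whereas the pair Gclm and Txnrd1 fell to 0.23 without the 2 mice farthest from the median of Gclm. Nfe2l2 had an r of 0.39 with Gclc, −0.21 with Keap1 and 0.31 with Nqo1, none of which passed the adjustment. Values of 1 mouse share the library and its depth.

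**Figure D5:**
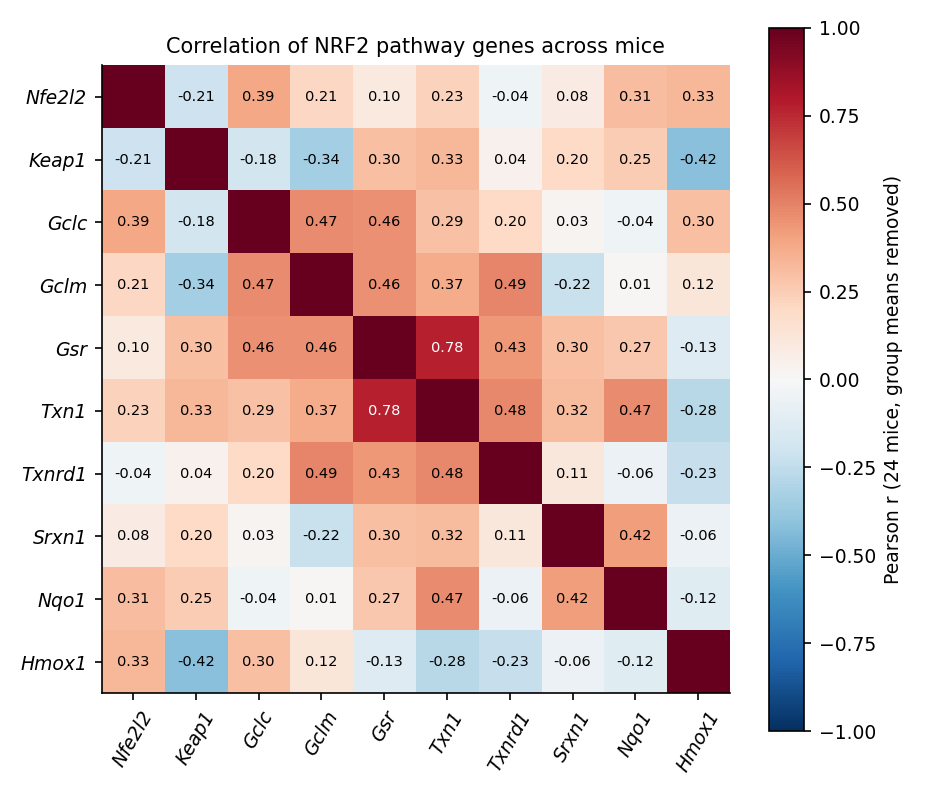
Pearson's r of log2 CPM between each pair of the 10 genes over 24 mice with group means subtracted, from −1 (blue) to 1 (red). The pair Gsr and Txn1 (0.78) has the highest value, and Keap1 with Hmox1 (−0.42) the lowest.

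Of all tested genes, those whose group-centred log2 CPM was most alike to a member over the 24 mice were found by Pearson's r, which is given here as a description. For Txn1 these were Ndufb11 (0.868), Hint1 (0.836) and Txnl1 (0.797). For Gsr they were Ran (0.817), Tmem35b (0.785) and Txn1 (0.782), so that a member appeared among the 3 most alike genes of another member. For Gclc they were Glo1 (0.813), Tdrkh (0.797) and Arhgap18 (0.788), and for Gclm Smim10l1 (0.847), Tlk1 (0.823) and Hsd17b6 (0.810). For Srxn1 they were Nudt2 (0.779), Faim (0.746) and Oaf (0.740), and for Txnrd1 B3galnt2 (0.820), Gnpda2 (0.818) and Rarb (0.778). For Nqo1 they included Mgst3 (0.808) and Nipsnap1 (0.700), and for Hmox1 they were Ccr2 (0.786), Tmsb4x (0.766) and Gm6377 (0.759). For Nfe2l2 they were Arrdc4 (0.851), Zfp395 (0.782) and Gas1 (0.777), and for Keap1 Higd2a (0.844), Pop7 (0.794) and Tst (0.787).

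Beyond the members, 90 further genes of redox defence were listed in 7 groups and 85 of them were tested. In males, 5 of the 85 genes (5.88%, against 3.52% of all genes) were higher in mKO mice with an unadjusted p under 0.01, and 0 were lower. Slc3a2, the heavy chain that the cystine importer shares with other amino acid transporters, rose from 24.2 ± 1.76 in mWT to 30.6 ± 2.73 CPM in mKO mice (SD, n = 6 each, log2 fold change 0.34, standard error 0.0691, adjusted p = 0.0258 from edgeR). The other chain of the cystine importer, Slc7a11, was at 0 CPM in mWT and mKO mice and did not pass the expression filter. Sqstm1, encoding the adaptor p62 that can draw KEAP1 away from NRF2, was at 246 ± 18.1 CPM in mWT and 315 ± 33.8 CPM in mKO mice (SD, n = 6 each, log2 fold change 0.36, standard error 0.0922, adjusted p = 0.121 from edgeR). The others were Gstm1, a glutathione S-transferase (log2 fold change 0.26, adjusted p = 0.269), Msra, a methionine sulfoxide reductase (0.19, adjusted p = 0.175), and Cat, the peroxisomal catalase (0.19, adjusted p = 0.217). By group, 1 of 11 regulators of NRF2, 2 of 19 other glutathione genes, 1 of 16 other thioredoxin and peroxiredoxin genes and 1 of 5 superoxide and peroxide enzymes passed in males. An adjusted p under 0.05 in males was reached by 1 of the 85 genes with edgeR, against 0.211% of all genes. With DESeq2 it was reached by 4 of the 85, against 1.15% of all genes.

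For the 11 genes of NADPH supply, the 10 of quinone, heme and iron metabolism and the 13 of detoxification and transport, the median log2 fold changes in males were 0.08, 0.08 and 0.10. The NADPH group includes the enzymes of the pentose phosphate pathway, malic enzyme and the isocitrate dehydrogenases, which feed glutathione and thioredoxin reductase. All 11 had a positive log2 fold change in males, from 0.001 to 0.119, as had 49.4% of all genes. However, 0 of the 11 had an unadjusted p under 0.01 with edgeR or DESeq2 and 0 a p under 0.05 with edgeR. In females, 0 of the 85 genes passed the cut-off of 0.01 with edgeR or DESeq2. With edgeR, 1 had an unadjusted p under 0.05, as had 601 of the 12330 genes tested. For the difference of the KO effects, Slc3a2 was 0.41 on the log2 scale more positive in males (standard error 0.0969, adjusted p = 0.620 from edgeR), as its mean was 33.8 CPM in fKO and 35.6 CPM in fWT mice. Txnrd3, a thioredoxin reductase known from testis, had a difference of −0.42 (standard error 0.128, adjusted p = 0.816 from edgeR). Averaged over both sexes, 1 of the 85 genes (1.18%, against 2.83% of all genes) passed the cut-off of 0.01 with edgeR. With DESeq2, 6 of the 85 passed, as did 447 of all 12330 genes. The gene called by edgeR was Cat (log2 fold change 0.15, standard error 0.0429, adjusted p = 0.247 from edgeR).

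The sexes differed in more of the listed genes. In WT mice, 13 of the 85 genes were higher in males and 10 were lower (27.1%, against 17.3% of all genes), and in KO mice 20 were higher and 8 lower (32.9%, against 14.4%). Gstp1, the pi class glutathione S-transferase, was at 698 CPM in mWT and 80.3 CPM in fWT mice on average (log2 fold change 3.12, standard error 0.188, adjusted p = 6.86e-12 from edgeR). Mgst1, the microsomal transferase, was higher in mWT than in fWT mice by 0.49 on the log2 scale, and Slc3a2 was lower (−0.55). Of the thioredoxin group, Prdx5 (0.36) and Txnl1 (0.30) were higher and Prdx4 (−0.30), the peroxiredoxin of the endoplasmic reticulum, was lower in mWT mice. Of the NADPH group, Me1, the malic enzyme (0.85), and Idh1 (0.29) were higher and the mitochondrial Idh2 (−0.42) was lower. Ugdh (0.83), which makes UDP-glucuronic acid, and Aox1, an aldehyde oxidase (0.81), were higher and the efflux transporter Abcc4 (−0.72) was lower. Cat (0.43), the kinase gene Gsk3b (0.41) and Fech (0.21), the last enzyme of heme synthesis, were higher, and the extracellular superoxide dismutase Sod3 (−0.61) was lower. All of these had an adjusted p under 0.05 from edgeR's quasi-likelihood test in WT mice.

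Clock genes and markers of liver and blood cells were also measured in these libraries. Of 15 tested clock genes, 2 had a lower level in mKO mice than in mWT mice at an unadjusted p under 0.01 with edgeR, which 3.52% of all genes reached in males, and 5 had a p under 0.05. With DESeq2, 4 clock genes and 524 of all 12330 genes passed the cut-off of 0.01 in males. An adjusted p under 0.05 was reached by 0 clock genes with either tool. Per2 was at 16.9 ± 4.78 CPM in mKO and 36.6 ± 9.92 CPM in mWT mice (SD, n = 6 each, log2 fold change −1.11, adjusted p = 0.216 from edgeR), and Hlf had a log2 fold change of −0.35 (adjusted p = 0.266). Averaged over both sexes, Arntl had a log2 fold change of 1.49 (adjusted p = 0.342) and Cry2 one of −0.24 (adjusted p = 0.333). Of the 6 hepatocyte markers, Ttr had a log2 fold change of 0.30 in males (standard error 0.0968, adjusted p = 0.212 from edgeR), and the median of the 6 was 0.10. The summed hepatocyte markers were 103926 to 133360 CPM in mKO and 99720 to 133656 CPM in mWT mice, and no marker was at 0. Of the 5 tested red blood cell markers, all had an adjusted p under 0.05 from edgeR for higher levels in mKO than in fKO mice (median log2 fold change 1.14), as did 1 of the 5, Alas2, in mWT against fWT mice (median of the 5 0.44). Of all genes, 14.4% passed this threshold in KO and 17.3% in WT mice, in either direction. Between mKO and mWT mice, 0 of the 5 had an unadjusted p under 0.01 with edgeR. With DESeq2, 2 of the 5 had one, as had 524 of all 12330 genes. In edgeR, Hbb-bs and Hbb-bt had log2 fold changes of 0.45 and 0.53 and a p under 0.05. Hbb-bt had a difference of KO effects of 0.81 (adjusted p = 0.816), and Alas2, of heme synthesis in red blood cells, was higher in mWT than in fWT mice (log2 fold change 3.44, adjusted p = 1.45e-13 from edgeR). The part of the clock genes and of these markers in the differences of the members was not tested.

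Some markers of further cell types were lower in mWT than in fWT mice. Of the sinusoidal endothelial list, 4 of 8 genes were lower (Fcgr2b −0.44, Clec4g −0.39 and Oit3 −0.34 among them), and of the stellate cell and fibroblast list 2 of 8 (Colec11 −0.47 and Dcn −0.38). An adjusted p under 0.05 for this sex difference, in either direction, was reached by 17.3% of all genes, so that 2 of 8 is near that share. Of the Kupffer cell and macrophage list, Vsig4 (−1.05), Cd68 (−0.96) and Cd5l (−0.84), tied with Lyz2 (−0.84), had the largest differences among the genes with an adjusted p under 0.05, and Marco (−0.99) had an adjusted p of 0.145. Only 3 of the 6 cholangiocyte genes were tested. Among them, Spp1 (−0.40) was lower in mWT mice with an adjusted p under 0.05 from edgeR, whereas 1 of the 3 had a positive log2 fold change. Only 2 of the 8 lymphocyte and neutrophil genes were tested, and Ptprc (−0.79) was lower in mWT mice with an adjusted p under 0.05 from edgeR. Of the 6 hepatocyte markers, 1 (Trf, −0.40) was lower with an adjusted p under 0.05, 4 had a positive log2 fold change, and the median was 0.07. Neither Kupffer cell, endothelial nor stellate cell markers had a gene with an unadjusted p under 0.01 in mKO against mWT mice in edgeR or DESeq2, and 1 of them, a stellate cell marker, had a p under 0.05 in edgeR.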

How the data were processed

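Liver RNAseq of 24 mice was analysed. Per the labels and the study's methods, stranded mRNA libraries were sequenced in a single multiplex as single-end reads, trimmed with fastp 0.20, aligned to GRCm38.p6 with STAR 2.7a and counted with featureCounts. The deposited tables give, for each mouse, the whole-number read counts of Ensembl genes, which the authors had neither normalized nor filtered. The annotation release, the strand setting and the handling of reads that map to several places are not given in the sources used here. Symbols and coordinates were taken from GENCODE M21 (25712 of 25746 genes matched), and groups and mouse numbers from the labels. Replicates of a group differed by more than sampling noise (lowest chi-square per gene 8.07). The lowest value was that of fKO mice 2 and 3, which were thus more alike than any other replicates. The next lowest was 15.72, for mKO mice 5 and 6. P-values of group comparisons set the difference between groups against the spread between these mice.

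Genes at 0.66 CPM or more in 6 or more libraries were kept (12330). Counts were scaled by TMM and fitted with edgeR 4.0.16 in R 4.3.3 (quasi-likelihood test, robust dispersions, a mean per group). All contrasts come from this fit, and p-values were adjusted over all tested genes by the Benjamini-Hochberg method. KO effects were called at the study's unadjusted p under 0.01 and sex differences at an adjusted p under 0.05. Log2 CPM used a prior count of 2. Correlations used 100000 permutations of mice within groups. Exact permutation tests compared the mean log2 CPM of 6 against 6 mice, two-sided. RPKM divides CPM by the exonic length in GENCODE M21. Similar transcripts were searched with blastn 2.17.0, and figures drawn with matplotlib 3.10.9. The fit was run on simulated data with known changes. These were larger than the KO effects of the members, so that the run does not show how well effects of that size are found.

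The members and lists were chosen with earlier results of these data known. The genes named besides the members are listed genes with an unadjusted p under 0.01 for a KO effect or the difference of KO effects, the 3 listed genes per group with the largest sex difference in WT mice at an adjusted p under 0.05, and the 3 genes most alike to each member. Of the latter, 1 gene is not reported here. The comparison of Hmox1 with the summed Kupffer cell markers was added after the values were seen. Alternatives were DESeq2 1.42.0, its size factors, upper-quartile scaling, no filter, filterByExpr, non-robust dispersions, fits of only the groups compared, removal of the Mup genes, the mouse number as a block, exact permutation tests, and each mouse left out. The mouse numbers do not pair the mice: across the groups, mice with the same number had correlations of their deviations between −0.335 and 0.169. The methylation data were not analysed here.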

Additional observations from a re-analysis of the deposited data

Results flagged for a closer look

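Of the 40 sets of 6 mice (10 genes in 4 groups), 3 held a mouse far from the other 5, where chance flags about 1 in 20 sets. Srxn1 was at 30.8 CPM in mWT mouse 5, against 37.2 to 39.1 CPM in the other mWT mice. Without this mouse, the log2 fold change of Srxn1 in males was 0.27 (adjusted p = 0.277 from edgeR). Srxn1 was at 41.7 CPM in mKO mouse 3, against 46.2 to 48.5 CPM in the other mKO mice, and without this mouse the log2 fold change was 0.35 (adjusted p = 0.0646 from edgeR). Over all alternatives the adjusted p of this result ranged from 0.0122 to 0.277. Keap1 was at 35.8 CPM in mKO mouse 4, against 29.6 to 31.7 CPM in the other mKO mice, and without this mouse the log2 fold change of Keap1 in males was −0.02 (adjusted p = 0.966 from edgeR).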

How the results depend on the processing

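Each result was recomputed under 34 alternatives (24 without 1 mouse each, 10 others), fewer where an alternative could not be applied. Of 2000 single-gene comparisons with the values reported, 1919 kept the direction and the side of the threshold, 29 lost a call, 17 gained one and 35 turned sign. None of the 12 called results turned sign, and 7 kept their call under every alternative, namely Srxn1 and Txn1 in males, Srxn1 on average, Nqo1 in both genotypes, and Gsr and Srxn1 for the sex difference in KO mice. In males, the number of members with an unadjusted p under 0.01 was 4 with every alternative fit of all mice and 3 with exact permutation tests, where Gclc missed it, and between 2 and 4 when 1 mouse was left out. It was 2 without mWT mouse 3, without mWT mouse 5 or without mKO mouse 5, when Gclc and Gsr missed the cut-off. With an adjusted p under 0.05, 0 members became 2 with DESeq2 (which called 142 genes in all, against 26 with edgeR) and 0 to 1 without a mouse (1 without fKO mouse 5). In females, 0 became 1 without a filter (Hmox1), 1 with exact permutation tests (Gclm), and 0 to 1 without a mouse (1 without mKO mouse 4, fWT mouse 2, 5 or 6, or fKO mouse 1). For the difference between the sexes, 0 became 0 to 1 (1 without fKO mouse 2, Txn1). Averaged over both sexes, 2 became between 1 and 4 when a mouse was left out (4 without fKO mouse 5, and 1 without mWT mouse 3 or 5, mKO mouse 1 or 5, fWT mouse 2, 5 or 6, or fKO mouse 2 or 3), and with an adjusted p, 0 became 1 with DESeq2 and 0 to 1 without a mouse (1 without fKO mouse 5). DESeq2 called 48 genes on average over both sexes (edgeR 21), 18 in females (edgeR 11) and 10 for the difference between the sexes (edgeR 1). For the sex difference in WT mice, 2 became 1 with upper-quartile scaling and between 1 and 3 without a mouse (1 without mWT mouse 2, 4 or 6, when Gsr missed the threshold). Gsr also missed the cut-off of 0.01 in the exact permutation test of this difference (p = 0.0108). The correlation of Gsr and Txn1 kept its call under the 2 alternatives run (DESeq2 size factors and 2 mice left out). The 4 members with a sex difference in KO mice kept their calls in every alternative fit across all genes, while in the exact permutation test Gclc had p = 0.0108, above the cut-off of 0.01 used there.

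Of the 60 single-gene results, 12 turned sign, and none of these was called. Leaving out 1 mouse each, the log2 fold change of Nfe2l2 ranged from −0.078 to 0.111 in males, from −0.005 to 0.095 in females, from −0.023 to 0.071 on average and from −0.165 to 0.001 between the sexes in WT mice. Its difference of KO effects ranged from −0.109 to 0.080 and was 0.013 with upper-quartile scaling. For Keap1 the range was −0.022 to 0.058 in males and −0.016 to 0.048 between the sexes in KO mice. Gclm and Hmox1 in males ranged from −0.014 to 0.075 and from −0.125 to 0.045. Txn1, Txnrd1 and Nqo1 in females ranged from −0.066 to 0.052, from −0.010 to 0.041 and from −0.006 to 0.140. The cause of these changes was not tested. The replicate block, with the mouse number as a term, left 4 members under the cut-off in males, 0 in females and 2 on average, and 2 and 4 for the sex differences, as without it, and in 1 of 24 cases a mouse was most alike to the mouse of its own number. Nqo1 and Hmox1 rest on the fewest reads, from 97 counts per mouse, which limits their precision.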
